A study of Gallus gallus with 16 samples.

Results

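The genes described here are those that drive and mark cell division in growing chicken feathers. They were chosen by symbol alone: the A, B, D and E cyclins, the genes named CDC, CDK or CDKN with a number, the MCM and ORC genes, the centromere proteins CENPA to CENPW, the E2F factors, the BUB, AURK, PLK and NCAP genes, and MKI67, TOP2A, PCNA and BIRC5. In all, 104 of the 15512 genes listed in both expression tables fitted these names, out of 15795 genes listed for remiges and 15696 for plumes. The naming rule used no expression value, although it was set with earlier results of these data known. Of these genes, 18 carry a cycle name but are known mainly for other work (CDC42, a small GTPase of the cytoskeleton, or CDK9, a kinase of transcription elongation), and they are described as a set of their own. Several well-known cycle genes are not among the symbols used here (CCNB1, CDK4, CDKN1A, MCM7, AURKB), so their families are described without them.

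The study set narrow-vane feathers against wide-vane feathers of White leghorn chickens to ask which genes go with vane width. From primary remiges, the large flight feathers of the wing, the lateral side (narrow vane) and the medial side (wide vane) of the proximal follicle were taken apart, and from the body the dorsal plumes (narrow vane) and the breast plumes (wide vane). In each case the epithelium was separated from the pulp, the mesenchymal core, which gave lateral remige epithelium, medial remige epithelium, lateral remige pulp, medial remige pulp, dorsal plume epithelium, breast plume epithelium, dorsal plume pulp and breast plume pulp. Each of these 8 groups was sequenced as 2 libraries, a batch I and a batch II, from pools of 3 follicles for remiges and 25 for plumes. The paper describes the lateral and medial sides as cut from the same remige follicles, with epithelium and pulp separated afterwards. Libraries of a batch may therefore share follicles, although the paper does not list which do. The main fit treated all libraries as independent, whereas the fit with the batch as a block, given below, compared them within a batch. No age is given in the labels, no group carried a transgene or a treatment, and the study calls the batches biological replicates without saying whether they came from different birds, so the p-values below measure the spread between these libraries. Because whole tissues were sequenced, fewer dividing cells and less of an RNA per dividing cell cannot be told apart.

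A growing feather is fed by proliferation at the base of the follicle, where epithelial cells divide before they are displaced upwards, form barbs and keratinize, while the pulp is a vascular mesenchyme that is itself renewed from below. In any dividing cell the D cyclins with CDK6 and then the E cyclins with CDK2 carry the cell through G1, the CDK inhibitors hold it back, E2F factors switch on the genes of S phase, and MCM, ORC and CDC proteins license and fire replication origins. Condensins, centromere proteins and the mitotic kinases then fold, attach and separate the chromosomes under the control of the A and B cyclins with CDK1, and the anaphase-promoting complex ends mitosis.

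Each library of remige epithelium held 42.2 to 45.8 M alignments (M, 1000000), and of remige pulp 29.4 to 37.0 M. Plume libraries held 32.6 to 37.7 M for epithelium and 23.4 to 26.1 M for pulp. The deposited values are RPKM (reads per kilobase of gene per 1000000 reads), here rescaled so that each library sums to 1000000, which makes them TPM, a level per gene length. The tissue labels were borne out by markers: 15 of 16 keratinocyte genes were higher in epithelium than in pulp in remiges and 16 of 16 in plumes, and all 11 fibroblast genes, all 10 endothelial genes and all 6 leukocyte genes were lower. Keratinocyte marker RNA was also present in pulp. Summed keratinocyte markers stood at 9793 to 10812 TPM in remige epithelium against 1780.3 to 2583 TPM in remige pulp. The sum in pulp was 20.7% of the epithelial one in remiges and 15.3% in plumes, and gene by gene the log2 difference spanned 0.32 to 4.95 for remiges and 0.93 to 5.63 for plumes. The fibroblast sum in epithelium was 2.29% and 1.24% of that in pulp. Summed erythroid markers stood at 3.45 to 5.72 TPM in remige epithelium and were uneven in remige pulp. There they came to 345.7 (lateral) and 524.5 TPM (medial) in batch I, against 912.2 and 1348.9 TPM in batch II. The part of the erythroid genes in the differences below was not tested. None of the 16 keratinocyte genes was at 0 in any library, and their part in the differences below was not tested, nor was whether cells of the pulp express them.

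The cell cycle genes were well expressed in every group. Over the 16 libraries 5 of the 104 averaged 100 TPM or more, 82 between 10 and 100 TPM, 13 between 1 and 10 TPM and 4 under 1 TPM. The most abundant were CDC42 (468 TPM), the replication clamp PCNA (295 TPM), the mitotic kinase CDK1 (157 TPM), the CDK inhibitor CDKN1B (148 TPM) and the splicing factor CDC5L (106 TPM). CDC20B and CDK3 stayed under 1 TPM on average in all 8 groups and were not tested. CDKN2A was listed at 0 in 1 library of medial remige epithelium and 1 of dorsal plume pulp. Summed over all 104 genes the level was 3562 to 4079 TPM in remige epithelium against 4625 to 4683 TPM in remige pulp, without overlap. It was 3387 to 3852 TPM in plume epithelium against 3786 to 4185 TPM in plume pulp, with overlap. Without the 18 genes known for other work, the sums of the tissues did not overlap in either feather type. They were then 2694 to 3042 TPM in remige epithelium against 3458 to 3553 TPM in remige pulp. In plumes they were 2399 to 2679 TPM in epithelium against 2716 to 3091 TPM in pulp. All these sums are in TPM, where the median gene of all those tested was also lower in epithelium. Its log2 difference, epithelium minus pulp, was −0.35 in remiges and −0.18 in plumes. Whether the sums separate under another scaling was not tested. Remige and plume values come from separate tables and were not tested against each other.

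**Figure D1:**
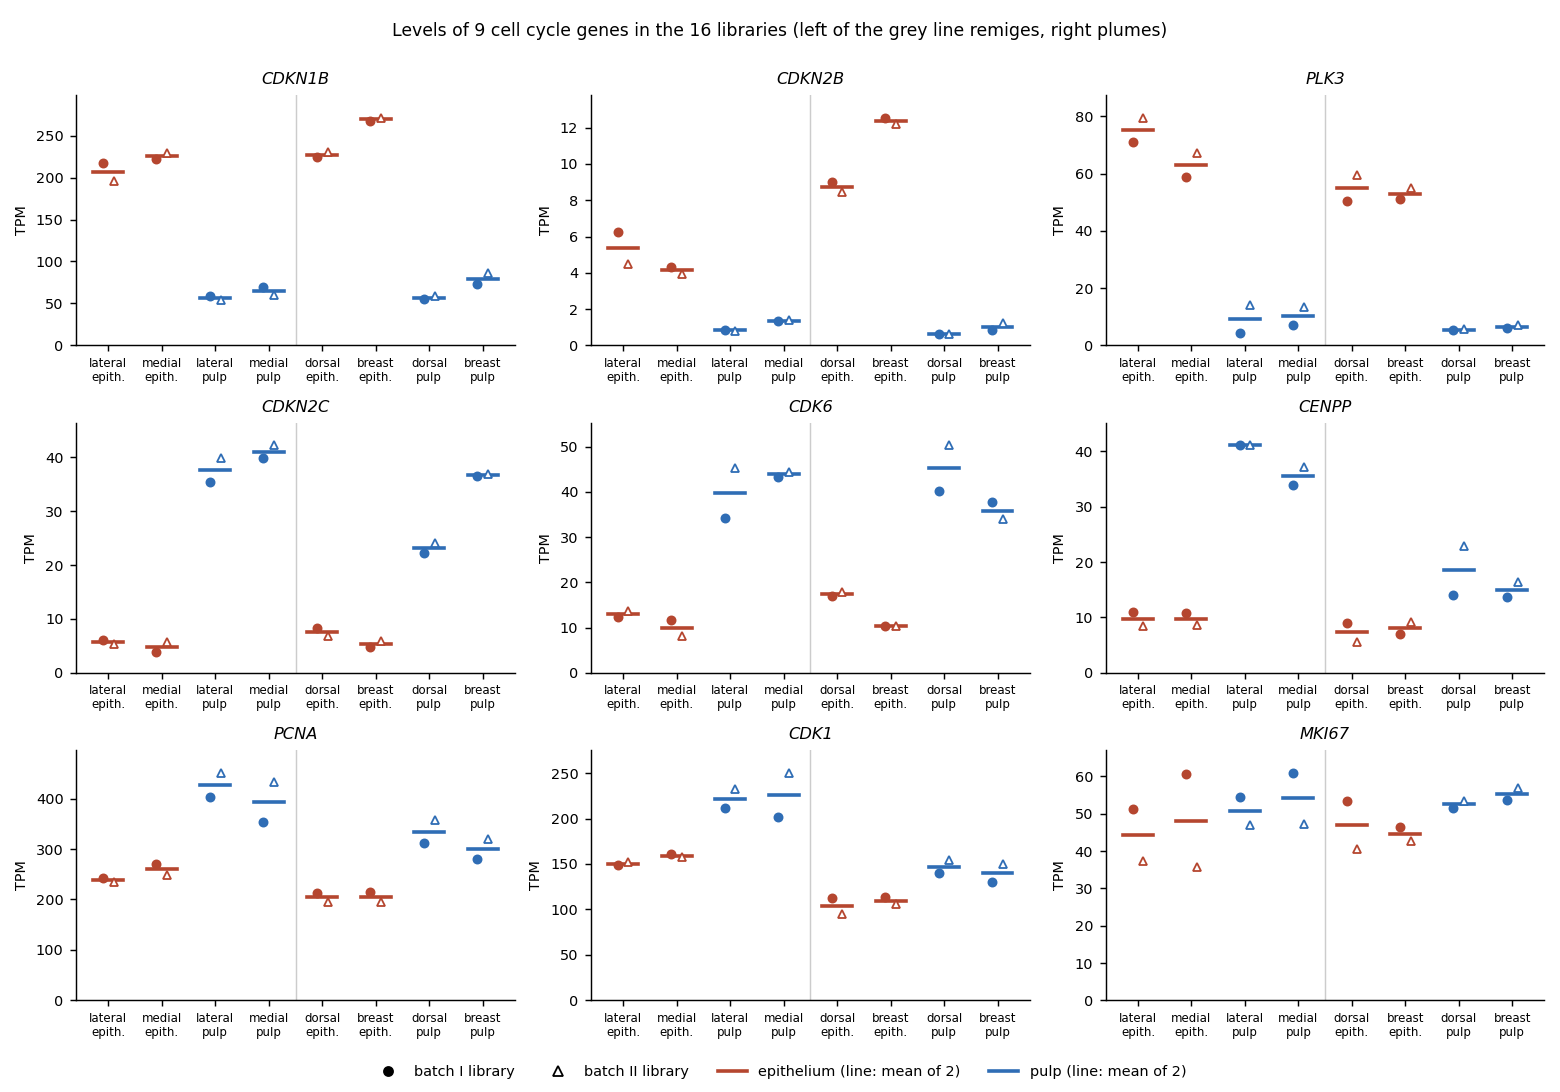
Levels of 9 cell cycle genes in TPM (linear axis from 0) in each of the 16 libraries, with circles for batch I, triangles for batch II, red for epithelium, blue for pulp and a line at the mean of the 2 libraries; remige groups are left of the grey line and plume groups right of it. CDKN1B, CDKN2B and PLK3 were higher in every epithelium library than in any pulp library, CDKN2C, CDK6 and CENPP were lower, PCNA and CDK1 differed less, and the MKI67 libraries of the 2 tissues overlapped.

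Epithelium was first set against pulp within each feather type, over 4 libraries a side. In both feather types the inhibitors CDKN1B and CDKN2B and the stress-responsive kinase PLK3 were higher in epithelium, while the inhibitor CDKN2C, the G1 kinase CDK6, CDK14 and the centromere genes CENPP, CENPM and CENPW were lower. The libraries of the general proliferation mark MKI67 overlapped between the tissues in both feather types. MKI67 did not pass the test in remiges and was called lower in plume epithelium, a call lost with 1 library left out. TOP2A did not pass the test in either feather type. Of the 100 members tested in remiges, limma on log2(TPM + 1) with Benjamini-Hochberg adjustment over all genes called 10 higher in epithelium, where 18.7% of all genes tested were higher, and 38 lower, where 44.9% of all genes were lower. Of the 102 tested in plumes it called 23 higher, against a background of 30.2%, and 51 lower, against a background of 47.0%. In these fits the shares of members called lay under those of all genes, except the 50% called lower in plumes, which was slightly above. A call of lower in epithelium was the commonest outcome over all genes tested. With the batch as a block, described below, 17% of members were higher and 60% lower in remiges, against 24.3% and 53.6% of all genes.

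The number called in each direction depended on how the libraries were scaled to each other. In TPM the median log2 difference of all genes was −0.35 in remiges and −0.18 in plumes, and that of the members was −0.33 and −0.24, which is 0.025 above and 0.06 below the median of all genes. After quantile normalization, which gives all libraries 1 distribution, the medians of all genes were 0.17 and 0.15 and those of the members 0.10 and 0.08. The calls were then 28 higher and 15 lower in remiges (37.2% and 27.3% of all genes) and 43 higher and 34 lower in plumes (46.2% and 34.4% of all genes). With libraries set to equal upper quartiles the calls were 19 higher and 20 lower in remiges (28.1% and 35.1% of all genes), and 29 higher and 43 lower in plumes (37.0% and 42.4% of all genes). In plumes 4 members called lower in TPM were called higher after quantile normalization (CDK15, CENPJ, NCAPG2 and ORC5), and in remiges none turned. Under all 4 scalings 10 members were higher and 13 lower in remige epithelium, and 22 were higher and 33 lower in plume epithelium. The share of all genes that kept a call under all 4 scalings was not computed, so these counts cannot be set against a background. Medians of the roles are therefore also given below relative to the median of all genes.

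**Figure D2:**
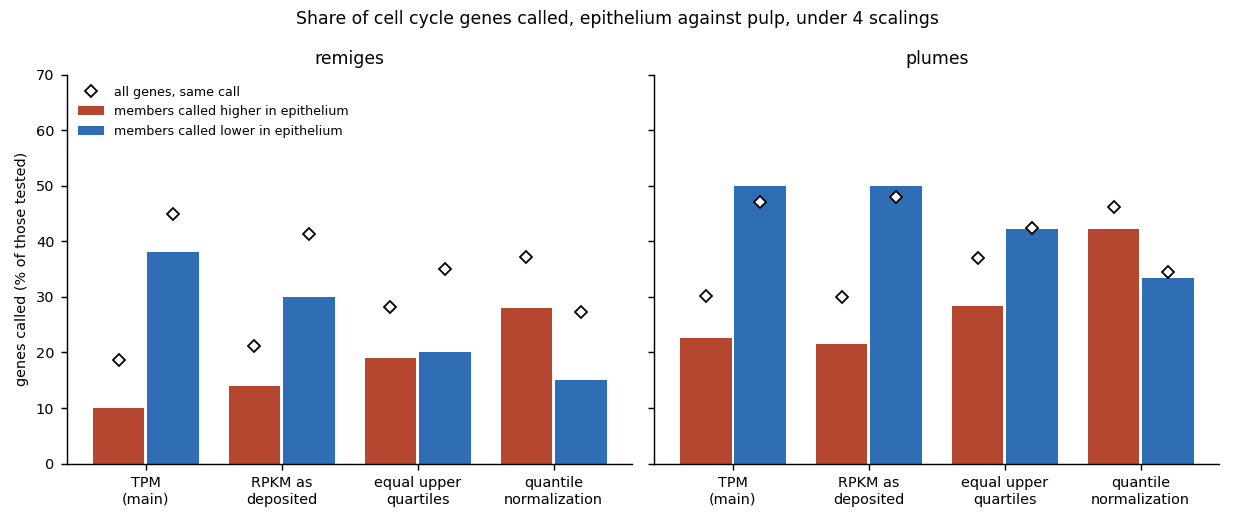
Share of the tested cell cycle genes called higher (red) and lower (blue) in epithelium than in pulp, in percent, under 4 scalings of the libraries, for remiges (left, 100 genes) and plumes (right, 102 genes); open diamonds give the share of all genes tested with the same call. The calls of the members moved with those of all genes, from 10 higher and 38 lower in TPM to 28 higher and 15 lower after quantile normalization in remiges.

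The batch numbers mattered for remiges. The labels give a batch to each library, and with the batch as a block limma called 17 members higher and 60 lower in remige epithelium, against 24.3% and 53.6% of all genes, while in plumes the block gave 23 higher and 51 lower as without it, against 30.8% and 47.5%. Leaving out each library in turn left 30 to 41 members lower in remiges and 44 to 52 in plumes, and 10 to 11 and 18 to 23 higher. No calls over all genes are listed for those fits. In the remige table the names of both batch I pulp libraries carry no sequencing lane or index, unlike those of the other 6 libraries, and whether batch I was sequenced as 1 set is not given. Without these 2 pulp libraries limma called 9 members higher and 24 lower in remiges, against 14.2% and 39.1% of all genes, with 1 library left in each pulp group and its spread taken from the epithelium. The remige calls lost in that fit included those of CENPV, E2F2, CCND2, MCM2, MCM4, CDC20, BUB1 and BUB3, whereas TOP2A passed as lower (-0.37, adjusted p = 0.0425).

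Of the members higher in epithelium, 10 were called in both feather types, which is 100% of the remige calls and 43.5% of the plume calls, against 92.5% and 56.9% for all 12634 genes tested in both: CDKN1B, CDKN2B, PLK3, CDC7, CDC34, CENPV, E2F2, CDK9, CDK17 and AURKAIP1. Of those lower in epithelium 30 were shared, 78.9% of the remige calls and 58.8% of the plume calls, against 87.0% and 83.6% for all genes. The member called in opposite directions was CDK19, a kinase of the Mediator complex of transcription, with 29.5 to 31.7 TPM in remige epithelium against 36.9 to 44.6 TPM in remige pulp, but 52.0 to 60.5 TPM in plume epithelium against 35.02 to 64.9 TPM in plume pulp. It was called lower in remige epithelium (-0.39 ± 0.098, SE, adjusted p = 0.0114) and higher in plume epithelium (0.29 ± 0.082, adjusted p = 0.0109). In plumes its libraries overlapped, and with 1 library left out its adjusted p reached 0.0509. The plume value is a mean over dorsal and breast plumes, which differed. Every dorsal epithelium library was above every dorsal pulp library, whereas breast epithelium and breast pulp overlapped and the breast pulp mean was the higher.

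**Figure D3:**
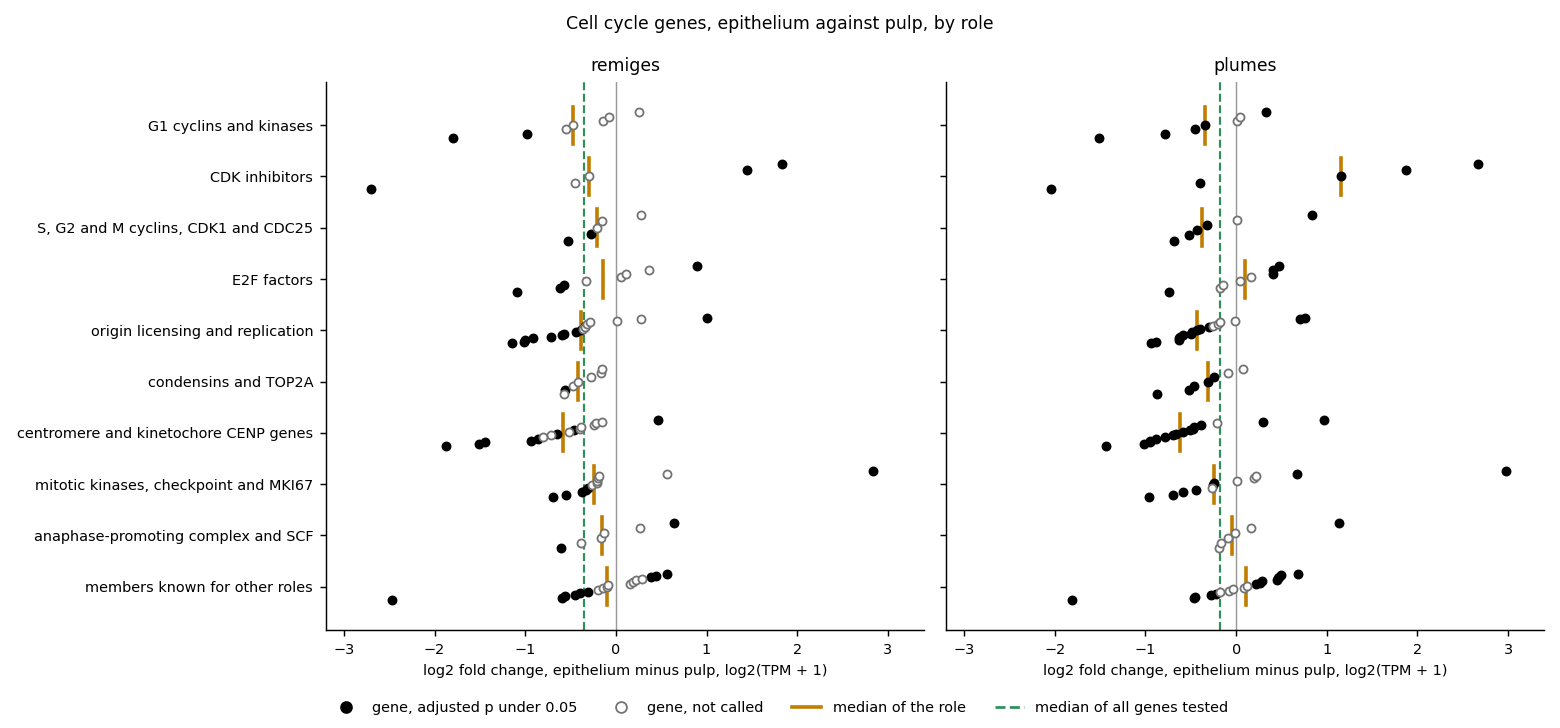
Log2 fold change of each tested cell cycle gene, epithelium minus pulp on log2(TPM + 1), by role, for remiges (left) and plumes (right); filled points passed an adjusted p of 0.05, open points did not, the orange bar is the median of the role and the dashed green line the median of all genes tested (−0.35 and −0.18). CENP genes had medians of −0.58 and −0.62, to the left of that line in both feather types, while the CDK inhibitors lay on both sides of it.

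The CDK inhibitors, which bind and block the cyclin-dependent kinases, gave large differences in opposite directions. CDKN1B, the inhibitor that accumulates in cells leaving the cycle, stood at 218 and 196 TPM in lateral and 222.3 and 229 TPM in medial remige epithelium, against 58.8 and 53.4 TPM in lateral and 69.2 and 60.0 TPM in medial remige pulp. In plumes it stood at 224.3 and 230.5 TPM in dorsal and 267 and 271 TPM in breast epithelium, against 54.8 and 58.4 TPM in dorsal and 72.8 and 85.8 TPM in breast pulp. Every epithelium library was thus above every pulp library in both feather types. The log2 fold change of CDKN1B was 1.83 ± 0.088 in remiges (SE, n = 4 libraries a side, limma adjusted p = 4.33e-06) and 1.87 ± 0.066 in plumes (adjusted p = 1.84e-08).

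CDKN2B, an inhibitor of the kinases that pair with D cyclins, was rare in pulp. It had 6.24 and 4.48 TPM in lateral and 4.30 and 3.96 TPM in medial remige epithelium, against 0.864 and 0.811 TPM in lateral and 1.35 and 1.38 TPM in medial remige pulp. Plume epithelium reached 9.03 and 8.48 TPM in dorsal and 12.5 and 12.2 TPM in breast plumes, against 0.615 and 0.640 TPM in dorsal and 0.817 and 1.21 TPM in breast pulp. The groups did not overlap, and the log2 fold change, which the pseudocount of 1 TPM makes smaller for so low a gene, was 1.45 ± 0.14 in remiges (limma adjusted p = 0.000145) and 2.66 ± 0.11 in plumes (adjusted p = 4.59e-08).

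CDKN2C, which inhibits the same D-type kinases as CDKN2B, had the reverse pattern. Its levels were 6.16 and 5.42 TPM in lateral and 3.86 and 5.69 TPM in medial remige epithelium, against 35.5 and 39.9 TPM in lateral and 39.8 and 42.2 TPM in medial remige pulp. In plumes they were 8.27 and 6.90 TPM in dorsal and 4.71 and 5.95 TPM in breast epithelium, against 22.3 and 24.2 TPM in dorsal and 36.5 and 36.9 TPM in breast pulp. All epithelium libraries were low and all pulp libraries high, with a log2 fold change of -2.70 ± 0.14 in remiges (limma adjusted p = 6.2e-06) and -2.04 ± 0.10 in plumes (adjusted p = 1.67e-07). All 3 calls held under the 4 scalings. A ratio of 2 genes within a library does not change when the library is multiplied by a constant. For this pair, chosen after its calls were known, CDKN1B over CDKN2C was 35.3 to 57.6 in remige epithelium against 1.34 to 1.74 in remige pulp, and 27.1 to 56.7 in plume epithelium against 1.99 to 2.46 in plume pulp.

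The other inhibitors were less clear. CDKN2A, of the same locus as CDKN2B in vertebrates, ranged over 0 to 6.68 TPM in remige epithelium and 2.60 to 6.05 TPM in remige pulp, a range as wide within as between the tissues (log2 fold change -0.45 ± 0.51, limma adjusted p = 0.466). In plumes it was called higher in epithelium (1.16 ± 0.36, adjusted p = 0.0162), although 2.65 to 6.30 TPM in epithelium and 0 to 3.18 TPM in pulp overlapped and the adjusted p reached 0.0785 with 1 library left out. CDKN3, a phosphatase that acts on CDKs, was lower in plume epithelium (-0.39 ± 0.12, adjusted p = 0.014), a call lost with 1 library left out (adjusted p up to 0.0539) and a sign that turned after quantile normalization (0.20). In remiges it gave -0.29 ± 0.13 (adjusted p = 0.0854, and 0.0465 with the block).

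Among the G1 cyclins and kinases, 2 of 7 tested were lower in remige epithelium and none higher (all genes: 44.9% and 18.7%). In plumes 4 were lower and 1 higher (all genes: 47.0% and 30.2%). The median log2 difference was −0.47 in remiges and −0.34 in plumes, and relative to the median of all genes it was −0.12 and −0.16. CDK6, the partner of the D cyclins, was the most different: 12.4 and 13.7 TPM in lateral and 11.6 and 8.12 TPM in medial remige epithelium, against 34.1 and 45.3 TPM in lateral and 43.3 and 44.4 TPM in medial remige pulp. Plumes gave 17.0 and 17.9 TPM in dorsal and 10.3 and 10.4 TPM in breast epithelium, against 40.2 and 50.3 TPM in dorsal and 37.7 and 33.9 TPM in breast pulp. No epithelium library reached a pulp library, and the log2 fold change was -1.79 ± 0.15 in remiges (limma adjusted p = 6.24e-05) and -1.51 ± 0.092 in plumes (adjusted p = 5.94e-07).

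The D cyclins, which receive growth signals, did not move as a family. CCND2 was lower in epithelium in both feather types and under all 4 scalings, at 20.3 ± 5.35 TPM in the epithelium of remiges and 40.1 ± 2.64 TPM in their pulp (SD, n = 4 libraries each, log2 fold change -0.98 ± 0.18, limma adjusted p = 0.00321). In plumes CCND2 averaged 17.9 ± 2.00 TPM in epithelium and 31.6 ± 3.54 TPM in pulp (-0.79 ± 0.097, adjusted p = 7.06e-05). CCND1, the most abundant gene of the set, was 50.2 ± 6.60 TPM in plume epithelium and 63.6 ± 6.11 TPM in plume pulp and was called lower (-0.34 ± 0.097, adjusted p = 0.0108). In remiges CCND1 gave 29.2 ± 8.23 TPM in epithelium and 41.9 ± 2.61 TPM in pulp, which missed the threshold without the block (adjusted p = 0.0568) and passed with it (adjusted p = 0.0113).

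CCND3 went the other way, higher in plume epithelium (0.33 ± 0.084, adjusted p = 0.00552), and in remiges at 0.25 ± 0.19 (adjusted p = 0.29, and 0.0297 with the block). The E cyclins, which start S phase with CDK2, did not pass the test in either feather type. CCNE1 gave -0.15 ± 0.35 in remiges (adjusted p = 0.739) and 0.037 ± 0.11 in plumes (adjusted p = 0.761), and CCNE2 gave -0.072 ± 0.20 (adjusted p = 0.775) and 0.012 ± 0.14 (adjusted p = 0.941). The ratio of CDK6 to CDK2 within a library, which is not independent of the call of CDK6, was 0.211 to 0.465 in remige epithelium against 0.752 to 1.17 in remige pulp. In plumes it was 0.488 to 0.679 in epithelium against 0.911 to 1.35 in pulp.

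The E2F factors split by member. In remiges 1 of 8 was higher and 3 were lower (all genes: 18.7% and 44.9%), and in plumes 3 were higher and 1 was lower (all genes: 30.2% and 47.0%). Their median stood 0.21 and 0.28 above that of all genes. E2F5, which works with the pocket proteins as a repressor, was lower in both, at 6.24 to 8.18 TPM in remige epithelium against 14.1 to 19.0 TPM in remige pulp (-1.09 ± 0.16, limma adjusted p = 0.000961). The plume values were 9.05 to 11.5 TPM in plume epithelium against 14.5 to 20.7 TPM in plume pulp (-0.74 ± 0.097, adjusted p = 0.000101). In remiges, however, the calls of E2F5, E2F1 and E2F6 did not hold under all 4 scalings. E2F2, an activator of S-phase genes, was higher in both, at 10.8 to 15.5 TPM in remige epithelium against 5.72 to 8.44 TPM in remige pulp (0.89 ± 0.18, adjusted p = 0.00393). Its plume libraries overlapped, at 10.6 to 15.1 TPM in plume epithelium against 6.60 to 12.7 TPM in plume pulp (0.47 ± 0.19, adjusted p = 0.0469, and up to 0.191 with 1 library left out). E2F1, the founding activator, was lower in remige epithelium (-0.61 ± 0.12, adjusted p = 0.00418) and gave -0.18 ± 0.10 in plumes (adjusted p = 0.137). E2F6, a repressor and the most abundant E2F, was lower in remige epithelium (-0.57 ± 0.092, adjusted p = 0.00154) and gave -0.14 ± 0.081 in plumes (adjusted p = 0.144).

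Of the genes that license and copy DNA, 10 of 17 were lower and 1 was higher in remige epithelium (all genes: 44.9% and 18.7%). In plume epithelium 11 were lower and 2 higher (all genes: 47.0% and 30.2%). Their median was −0.38 and −0.43, which is 0.03 and 0.25 below the median of all genes, and after quantile normalization −0.04 and −0.08, which is 0.20 and 0.23 below. The helicase subunits MCM2 to MCM6 differed by unequal amounts. MCM6 had 41.0 and 31.2 TPM in lateral and 43.6 and 27.9 TPM in medial remige epithelium, against 73.2 and 70.1 TPM in lateral and 74.2 and 69.6 TPM in medial remige pulp. It had 33.0 and 29.3 TPM in dorsal and 30.2 and 26.2 TPM in breast plume epithelium, against 49.7 and 54.1 TPM in dorsal and 58.9 and 59.5 TPM in breast plume pulp. The tissues did not overlap, and the log2 fold change was -1.001 ± 0.16 in remiges (limma adjusted p = 0.00159) and -0.88 ± 0.077 in plumes (adjusted p = 6.62e-06).

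MCM3 gave -0.92 ± 0.13 in remiges (adjusted p = 0.000882) and -0.93 ± 0.092 in plumes (adjusted p = 1.59e-05). The other subunits differed less: MCM5 gave -0.57 and -0.50, MCM4 gave -0.44 and -0.43, and both were lower in each feather type. MCM2 was lower in remiges (-0.34 ± 0.11, adjusted p = 0.0299, up to 0.0814 with 1 library left out) and gave -0.20 ± 0.12 in plumes (adjusted p = 0.157). Only MCM3 and MCM6 of these subunits held their remige call under all 4 scalings. PCNA, the clamp that holds the polymerase on DNA, followed MCM3 and MCM6. It reached 242 and 235 TPM in lateral and 270.5 and 249 TPM in medial remige epithelium, against 403 and 451 TPM in lateral and 353 and 433 TPM in medial remige pulp. In plumes PCNA had 194 to 214 TPM in epithelium against 280.5 to 357 TPM in pulp, again without overlap, with log2 fold changes of -0.71 ± 0.093 (adjusted p = 0.000542) and -0.63 ± 0.074 (adjusted p = 5.07e-05).

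The kinase CDC7, which fires licensed origins, was the replication gene of the naming rule called higher in epithelium in both feather types. In plumes ORC2 was called higher as well. CDC7 stood at 28.2 and 24.7 TPM in lateral and 28.9 and 25.2 TPM in medial remige epithelium, against 15.4 and 11.5 TPM in lateral and 13.4 and 11.3 TPM in medial remige pulp. Plume epithelium had 16.4 and 14.1 TPM in dorsal and 20.2 and 18.4 TPM in breast plumes, against 11.6 and 11.1 TPM in dorsal and 7.73 and 8.75 TPM in breast pulp. CDC7 was higher in epithelium by 1.01 ± 0.14 on the log2 scale in remiges (limma adjusted p = 0.000683) and 0.76 ± 0.095 in plumes (adjusted p = 7.67e-05), and the tissues did not overlap.

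Of the cyclins and kinase of S phase, G2 and mitosis, CDK1 differed in both feather types and the cyclins by member. In remiges 2 of 5 tested were lower and none higher (all genes: 44.9% and 18.7%), and in plumes 4 of 6 were lower and 1 was higher (all genes: 47.0% and 30.2%). The medians were −0.21 and −0.37 in TPM, and in remiges the sign turned to 0.08 after quantile normalization and 0.10 with equal upper quartiles. CDK1, the kinase that drives entry into mitosis, stood at 149 and 152 TPM in lateral and 161 and 157 TPM in medial remige epithelium, against 211 and 233 TPM in lateral and 201 and 250.2 TPM in medial remige pulp. Plumes had 112 and 95.1 TPM in dorsal and 113 and 106 TPM in breast epithelium, against 139.8 and 155 TPM in dorsal and 130.4 and 150.0 TPM in breast pulp. The tissues did not overlap, and the log2 fold changes were -0.52 ± 0.093 in remiges (limma adjusted p = 0.00238) and -0.43 ± 0.078 in plumes (adjusted p = 0.000934), although the remige call did not hold under all 4 scalings.

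The ratio of the inhibitor CDKN1B to CDK1 within a library separated the tissues, which follows from the calls of these genes in TPM and is no separate support. It was 1.29 to 1.46 in remige epithelium against 0.230 to 0.344 in remige pulp, and 2.00 to 2.56 in plume epithelium against 0.378 to 0.572 in plume pulp. CCNA2, the cyclin of S phase and G2, averaged 48.7 ± 3.98 TPM in the epithelium of remiges and 56.4 ± 4.21 TPM in their pulp (-0.21 ± 0.093, adjusted p = 0.0924, and 0.0387 with the block). In plumes CCNA2 gave 46.9 ± 10.4 TPM in epithelium and 45.8 ± 3.70 TPM in pulp (0.0091 ± 0.10, adjusted p = 0.938). CCNB2, a mitotic cyclin, was lower in remige epithelium in TPM (-0.28 ± 0.075, adjusted p = 0.0155) but came to 0.033 with equal upper quartiles, and it was lower in plume epithelium under all 4 scalings (-0.52 ± 0.085, adjusted p = 0.000476). CCNB3, the B cyclin also known from meiosis, gave -0.15 ± 0.15 in remiges (adjusted p = 0.412) and was lower in plumes (-0.32 ± 0.079, adjusted p = 0.00504). CDC25A, a phosphatase that activates CDKs, was higher in plume epithelium, at 12.3 to 20.4 TPM against 6.89 to 10.2 TPM in pulp (0.84 ± 0.13, adjusted p = 0.000373), and gave 0.27 ± 0.18 in remiges (adjusted p = 0.216).

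Of the condensin subunits, which compact mitotic chromosomes, together with TOP2A, which untangles them, 1 of 7 was lower in remige epithelium and 5 in plume epithelium (all genes: 44.9% and 47.0%). None was higher in either (all genes: 18.7% and 30.2%). The median was −0.41 in remiges and −0.31 in plumes in TPM, and 0.10 and −0.04 after quantile normalization. TOP2A averaged 70.7 ± 4.39 TPM in the epithelium of remiges and 80.1 ± 13.4 TPM in their pulp, and 83.9 ± 10.05 TPM in plume epithelium and 89.5 ± 13.1 TPM in plume pulp. Its log2 fold changes of -0.17 ± 0.14 (limma adjusted p = 0.333) and -0.088 ± 0.091 (adjusted p = 0.398) did not exceed the spread of the libraries and took a positive sign after quantile normalization.

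The CENP genes were grouped by symbol, and most but not all of them encode proteins of the centromere or kinetochore. They were the role whose median in TPM lay furthest below that of all genes. In remiges 7 of 16 were lower in epithelium, a share close to that of all genes (44.9%), and 1 was higher (all genes: 18.7%). In plumes 13 were lower and 2 higher (all genes: 47.0% and 30.2%). The medians were −0.58 in remiges and −0.62 in plumes. Relative to all genes these medians were −0.23 and −0.44 in TPM and −0.29 and −0.39 after quantile normalization. CENPP, a subunit of the constitutive centromere network, had 11.04 and 8.49 TPM in lateral and 10.9 and 8.61 TPM in medial remige epithelium, against 41.1 and 41.1 TPM in lateral and 34.0 and 37.2 TPM in medial remige pulp. In plumes CENPP had 8.996 and 5.64 TPM in dorsal and 7.06 and 9.17 TPM in breast epithelium, against 14.04 and 23.0 TPM in dorsal and 13.7 and 16.4 TPM in breast pulp. The tissues did not overlap, with log2 fold changes of -1.88 ± 0.13 in remiges (limma adjusted p = 2.36e-05) and -1.02 ± 0.19 in plumes (adjusted p = 0.000986).

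CENPM, of the same network, had 4.37 to 8.16 TPM in remige epithelium against 16.5 to 22.7 TPM in remige pulp (-1.50 ± 0.19, adjusted p = 0.000461). The same gene had 3.71 to 5.79 TPM in plume epithelium against 10.5 to 17.7 TPM in plume pulp (-1.44 ± 0.13, adjusted p = 7.88e-06). CENPW, which pairs with CENPT at the centromere, had 16.4 to 30.6 TPM in remige epithelium against 59.6 to 82.7 TPM in remige pulp (-1.45 ± 0.20, adjusted p = 0.000738) and gave -0.95 ± 0.085 in plumes (adjusted p = 8.19e-06). These 3 genes kept their calls under all 4 scalings in both feather types. CENPV, which organizes microtubules and is the most abundant of the family, went the other way. It averaged 88.5 ± 8.09 TPM in the epithelium of remiges and 64.5 ± 12.5 TPM in their pulp (0.47 ± 0.12, adjusted p = 0.0143). Its plume means were 55.4 ± 6.25 TPM in plume epithelium and 28.2 ± 5.73 TPM in plume pulp (0.97 ± 0.13, adjusted p = 0.000126). CENPA, the histone variant that marks the centromere, was lower in plume epithelium (-0.79 ± 0.14, adjusted p = 0.000703), with overlap, and gave -0.15 ± 0.31 in remiges (adjusted p = 0.692).

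Among the mitotic kinases, checkpoint proteins and MKI67, 5 of 12 were lower and 1 was higher in remige epithelium (all genes: 44.9% and 18.7%). In plume epithelium 6 were lower and 2 higher (all genes: 47.0% and 30.2%). The median was −0.24 and −0.25 in TPM, and in remiges it turned positive with equal upper quartiles (0.06) and after quantile normalization (0.09). PLK3, a polo-like kinase of the stress response, showed the largest difference of all members in both feather types. Its levels were 71.0 and 79.5 TPM in lateral and 58.7 and 67.3 TPM in medial remige epithelium, against 4.13 and 14.2 TPM in lateral and 7.07 and 13.3 TPM in medial remige pulp. In plumes they were 50.2 and 59.4 TPM in dorsal and 51.0 and 54.8 TPM in breast epithelium, against 5.37 and 5.57 TPM in dorsal and 5.89 and 7.06 TPM in breast pulp. No library overlapped, and the log2 fold change was 2.84 ± 0.36 in remiges (limma adjusted p = 0.000465) and 2.98 ± 0.094 in plumes (adjusted p = 1.01e-08).

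PLK1, the polo kinase that drives mitosis itself, did not pass the test, with -0.19 ± 0.20 in remiges (adjusted p = 0.445) and -0.27 ± 0.12 in plumes (adjusted p = 0.0729). BIRC5, the survivin subunit of the chromosomal passenger complex, was lower in both, at 66.9 to 78.2 TPM in remige epithelium against 98.2 to 117 TPM in remige pulp (-0.55 ± 0.10, adjusted p = 0.00277). The remige call did not hold under all 4 scalings. Plumes gave 49.4 to 61.0 TPM in plume epithelium against 78.8 to 100.9 TPM in plume pulp (-0.70 ± 0.083, adjusted p = 5.59e-05). AURKA, the kinase of the spindle poles, gave -0.19 ± 0.10 in remiges (adjusted p = 0.145) and was lower in plumes (-0.59 ± 0.10, adjusted p = 0.00063). BUB1, of the spindle checkpoint, was lower in remiges in TPM (-0.33 ± 0.11, adjusted p = 0.035) and came to 0.10 after quantile normalization. BUB3, the most abundant of the set, was lower in remiges (-0.37 ± 0.13, adjusted p = 0.0419, up to 0.122 with 1 library left out) and in plumes (-0.26 ± 0.06, adjusted p = 0.00382).

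MKI67, the antigen used in histology to mark cycling cells, overlapped between the tissues. It stood at 51.4 and 37.2 TPM in lateral and 60.5 and 35.6 TPM in medial remige epithelium, against 54.5 and 46.9 TPM in lateral and 61.0 and 47.2 TPM in medial remige pulp. Plumes had 53.4 and 40.5 TPM in dorsal and 46.5 and 42.6 TPM in breast epithelium, against 51.7 and 53.5 TPM in dorsal and 53.6 and 56.98 TPM in breast pulp. The overlap held for remiges and plumes, and the log2 fold change in remiges was -0.20 ± 0.20 (limma adjusted p = 0.412). In remiges, however, MKI67 also differed between the batches (-0.44, batch II minus batch I). Each remige epithelium library was below the pulp library of the same batch and side in TPM. The call in plumes (-0.24 ± 0.092, adjusted p = 0.0408) was lost with 1 library left out (adjusted p up to 0.132). Of the ratios to MKI67 within a library, MCM6 over MKI67 was 0.720 to 0.837 in remige epithelium against 1.22 to 1.49 in remige pulp, and 0.616 to 0.723 in plume epithelium against 0.963 to 1.099 in plume pulp. PCNA over MKI67 overlapped in remiges, at 4.47 to 6.98 in epithelium against 5.79 to 9.61 in pulp, and did not in plumes, at 4.00 to 4.82 against 5.24 to 6.69. CDK1 over MKI67 overlapped in both, at 2.66 to 4.42 in remige epithelium against 3.30 to 5.30 in remige pulp and 2.10 to 2.49 in plume epithelium against 2.43 to 2.89 in plume pulp. Within each batch and side of the remiges, however, PCNA over MKI67 and CDK1 over MKI67 were higher in pulp than in epithelium. These ratios are not independent of the calls of MCM6, PCNA and CDK1 given above.

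The genes of the anaphase-promoting complex and the SCF ligase, which mark cycle proteins for destruction, had few calls. In each feather type limma called 1 of 6 higher, and it called 1 lower in remiges and 0 lower in plumes, where the gene called higher was the single 1 with an unadjusted p under 0.05. Of all genes, 18.7% were higher and 44.9% lower in remiges, and 30.2% were higher and 47.0% lower in plumes. CDC34, the ubiquitin-conjugating enzyme that serves SCF, was higher in epithelium in both, at 29.4 ± 1.197 TPM in the epithelium of remiges and 18.6 ± 2.06 TPM in their pulp (0.64 ± 0.11, adjusted p = 0.00192). In plumes it averaged 42.0 ± 3.89 TPM in plume epithelium and 18.6 ± 1.40 TPM in plume pulp (1.13 ± 0.092, adjusted p = 4.2e-06). CDC20, the activator of the complex, was lower in remige epithelium (-0.60 ± 0.17, adjusted p = 0.0179, up to 0.0618 with 1 library left out) and gave -0.17 ± 0.095 in plumes (adjusted p = 0.137).

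Another 18 members are known for other work. In remiges 3 of 17 tested were higher and 6 lower in epithelium (all genes: 18.7% and 44.9%), and in plumes 8 of 18 were higher and 5 lower (all genes: 30.2% and 47.0%). Without them 7 of 83 were higher (8.4%) and 32 lower (38.6%) in remiges. In plumes 15 of 84 were then higher (17.9%) and 46 lower (54.8%), the latter above the share of all genes. CDK14, which in flies and mammals acts with a Y-type cyclin in Wnt signalling at the membrane, had 8.41 and 7.44 TPM in lateral and 8.52 and 6.30 TPM in medial remige epithelium, against 44.8 and 53.2 TPM in lateral and 45.8 and 43.2 TPM in medial remige pulp. In plumes it had 16.2 and 10.5 TPM in dorsal and 7.92 and 6.73 TPM in breast epithelium, against 54.6 and 52.6 TPM in dorsal and 27.2 and 23.4 TPM in breast pulp. All epithelium libraries lay below all pulp libraries, with log2 fold changes of -2.47 ± 0.13 (limma adjusted p = 6.97e-06) and -1.81 ± 0.13 (adjusted p = 2.14e-06). CDC42 was lower in remige epithelium (-0.59 ± 0.098, adjusted p = 0.00178) and gave -0.082 ± 0.051 in plumes (adjusted p = 0.171), while CDK9 was higher in both (0.56 ± 0.087, adjusted p = 0.00132, and 0.47 ± 0.067, adjusted p = 0.000179).

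Genes of the same processes outside the naming rule were also counted. Of all genes tested, 44.9% were lower and 18.7% higher in remige epithelium, and 47.0% were lower and 30.2% higher in plume epithelium. Of 38 other replication genes tested, 18 were lower and 1 was higher in remige epithelium, and 24 were lower and 3 higher in plume epithelium. Of 58 other mitosis genes (kinesins, spindle and kinetochore proteins), 42 were lower and 0 higher in remiges and 51 were lower and 3 higher in plumes. Their share called lower was above that of all genes in both feather types, a difference that was not tested. Their medians stood 0.25 and 0.40 below that of all genes, or 0.36 and 0.39 below after quantile normalization. Of 22 further cycle regulators, 11 were lower and 3 higher in remiges, and 9 were lower and 8 higher in plumes. Of the other replication genes with at least 5 TPM and no overlap, GMNN, which blocks relicensing of origins, was the most raised in epithelium. It stood at 18.0 ± 2.20 TPM in the epithelium of remiges and 9.11 ± 0.869 TPM in their pulp (0.91 ± 0.11, limma adjusted p = 0.000311). Its levels in plumes were 29.3 ± 8.57 TPM in plume epithelium and 8.90 ± 1.43 TPM in plume pulp (1.57 ± 0.13, adjusted p = 5.17e-06). Among the regulators, MYC, a driver of growth, was higher in both (1.04 ± 0.22, adjusted p = 0.00516, and 1.296 ± 0.084, adjusted p = 9.2e-07), and LIN52, a subunit of the DREAM complex that represses cycle genes, was lower in both (-1.17 ± 0.13, adjusted p = 0.000256, and -1.42 ± 0.16, adjusted p = 3.72e-05).

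Narrow and wide vanes were compared next. Between the lateral and the medial side of remiges no member was called. In epithelium limma called 0 of 100 members higher and 0 lower, against 0% and 0.00772% of all genes, and 0 members had an unadjusted p under 0.05, where 424 of 12954 genes did. In pulp it called 0 members in either direction, against 0% and 0% of all genes, again with 0 members at an unadjusted p under 0.05, where 468 genes had one. The members' median was −0.05 in epithelium and −0.02 in pulp. Among members with at least 5 TPM and no overlap between the sides, the widest gap was that of CENPA in pulp. There the lateral libraries had 5.91 and 11.2 TPM and the medial ones 13.6 and 20.8 TPM. Its log2 difference was -0.96 ± 0.43 (adjusted p = 1). In epithelium the widest gap by the same rule was that of CDK6, at 12.4 and 13.7 TPM in lateral against 11.6 and 8.12 TPM in medial epithelium (0.39 ± 0.21, adjusted p = 1). Without that rule the largest log2 difference of a member in epithelium was 1.32, also not called. The proliferation marks did not pass the test: MKI67 gave -0.084 ± 0.29 in epithelium and -0.083 ± 0.29 in pulp, and PCNA gave -0.12 ± 0.13 and 0.13 ± 0.13. The difference between the tissues in the lateral-to-medial contrast was called for 0 members in either direction, against 0% and 0% of all genes, and 0 members had an unadjusted p under 0.05, where 451 genes had one. Blocking on the batch, limma still called 0 members in each of these 3 tests. An unadjusted p under 0.05 was then found for 6 of 100 members in epithelium, 4 in pulp and 6 for the difference between the tissues. Of all 12954 genes, 1241, 1062 and 1328 had one in these tests, a larger share than among the members each time. All genes were called at 0.0386% higher and 0.00772% lower in epithelium with the block, 0.170% and 0.108% in pulp, and 0.0232% each way for the difference. With 2 libraries a group whose batches differed, as described below, this comparison called few genes of any kind. The absence of calls among the members therefore cannot show that the sides were alike, and a difference as large as that of CENPA in pulp did not pass.

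Between dorsal and breast plumes a few members differed, at shares below those of all genes in each tissue and direction (the difference in share was not tested). In epithelium limma called 4 of 102 members higher in dorsal plumes, against 8.55% of all genes, and 4 lower, against 9.10%. In pulp it called 6 higher, against 13.0%, and 8 lower, against 15.2%. The median of the members was −0.03 in epithelium and −0.02 in pulp, with members on both sides of 0 (44 positive and 58 negative in epithelium, 49 and 53 in pulp). In RPKM as deposited the epithelial median was −0.08, with 32 positive and 70 negative. None of the 8 epithelial calls and 1 of the 14 pulp calls (CDK19) held when each of the 8 plume libraries was left out in turn. A fit on the epithelium groups alone left 2 higher and 1 lower, and on the pulp groups alone 4 higher and 5 lower. No calls over all genes are listed for the fits of this kind or with a library left out. Marker genes also differed between the tracts. Summed melanocyte markers stood at 410.4 and 319 TPM in dorsal epithelium against 154 and 181 TPM in breast epithelium, with 5 of 8 higher and 1 lower, and 1 of 16 keratinocyte genes was higher there. In pulp the endothelial sum was 449 and 460.2 TPM in dorsal against 823 and 610.1 TPM in breast plumes, with 5 of 10 genes lower. The erythroid sum in pulp was 839.2 and 940.6 TPM in dorsal against 1349.4 and 1086.2 TPM in breast plumes. The keratinocyte sum there was 1320.1 and 1689 TPM against 1324 and 2263 TPM, with 6 of 16 genes lower and 1 higher, and 1 of 6 leukocyte genes was lower. The part of these markers in the tract differences was not tested.

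The genes higher in dorsal epithelium were 3 kinases and a phosphatase. CDK18, of the PCTAIRE family, had 21.9 and 23.7 TPM in dorsal against 13.4 and 11.3 TPM in breast epithelium (0.84 ± 0.20, limma adjusted p = 0.0208). CDK6 had 17.0 and 17.9 TPM in dorsal against 10.3 and 10.4 TPM in breast epithelium (0.70 ± 0.13, adjusted p = 0.00792). CDC14A, a phosphatase that reverses CDK phosphorylation, had 37.1 and 23.4 TPM in dorsal against 16.6 and 17.0 TPM in breast epithelium (0.78 ± 0.22, adjusted p = 0.0467, and 0.058 with the block). CDK14 was the fourth gene higher there (0.76 ± 0.19, adjusted p = 0.026), and the 2 libraries of each group did not overlap for any of the 4. The genes lower in dorsal epithelium differed less, and they included ORC5 of the origin recognition complex (-0.48 ± 0.13, adjusted p = 0.04) and the transcription kinase CDK9 (-0.42 ± 0.094, adjusted p = 0.0175). The others were the Aurora A partner AURKAIP1 (-0.37 ± 0.087, adjusted p = 0.0202) and CDK7, which activates other CDKs (-0.33 ± 0.095, adjusted p = 0.0475).

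In dorsal pulp CDK14 showed the widest difference, at 54.6 and 52.6 TPM against 27.2 and 23.4 TPM in breast pulp (1.06 ± 0.19, limma adjusted p = 0.00373). CENPA was higher in dorsal pulp, at 15.7 and 22.7 TPM against 9.64 and 12.1 TPM in breast pulp (0.75 ± 0.20, adjusted p = 0.0212). AURKA was higher likewise, at 52.998 and 53.9 TPM against 35.9 and 39.9 TPM (0.49 ± 0.14, adjusted p = 0.0358). Smaller differences in the same direction were called for E2F5 (0.43, adjusted p = 0.0465, and 0.0501 with the block), CDC14B (0.42, adjusted p = 0.0355) and CDC7 (0.42, adjusted p = 0.0479). The inhibitors CDKN1B and CDKN2C were lower in dorsal pulp. CDKN1B had 54.8 and 58.4 TPM in dorsal against 72.8 and 85.8 TPM in breast pulp (-0.48 ± 0.093, adjusted p = 0.00606). CDKN2C had 22.3 and 24.2 TPM against 36.5 and 36.9 TPM (-0.64 ± 0.14, adjusted p = 0.012). CDK19 was the call that held with each library left out, at 35.02 and 35.3 TPM in dorsal against 64.9 and 55.4 TPM in breast pulp (-0.75 ± 0.12, adjusted p = 0.0018, at most 0.0249 with 1 library left out). ORC5, ORC3 and CDC23, a subunit of the anaphase-promoting complex, were lower too. Their log2 differences were -0.54 for ORC5 (adjusted p = 0.0176), -0.44 for ORC3 (adjusted p = 0.0295) and -0.45 for CDC23 (adjusted p = 0.0207). The core proliferation marks did not pass in either tissue: MKI67 gave 0.061 ± 0.13 in epithelium (adjusted p = 0.815) and -0.071 ± 0.13 in pulp (adjusted p = 0.729), and PCNA gave 0.00067 ± 0.10 (adjusted p = 1) and 0.16 ± 0.10 (adjusted p = 0.301).

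**Figure D4:**
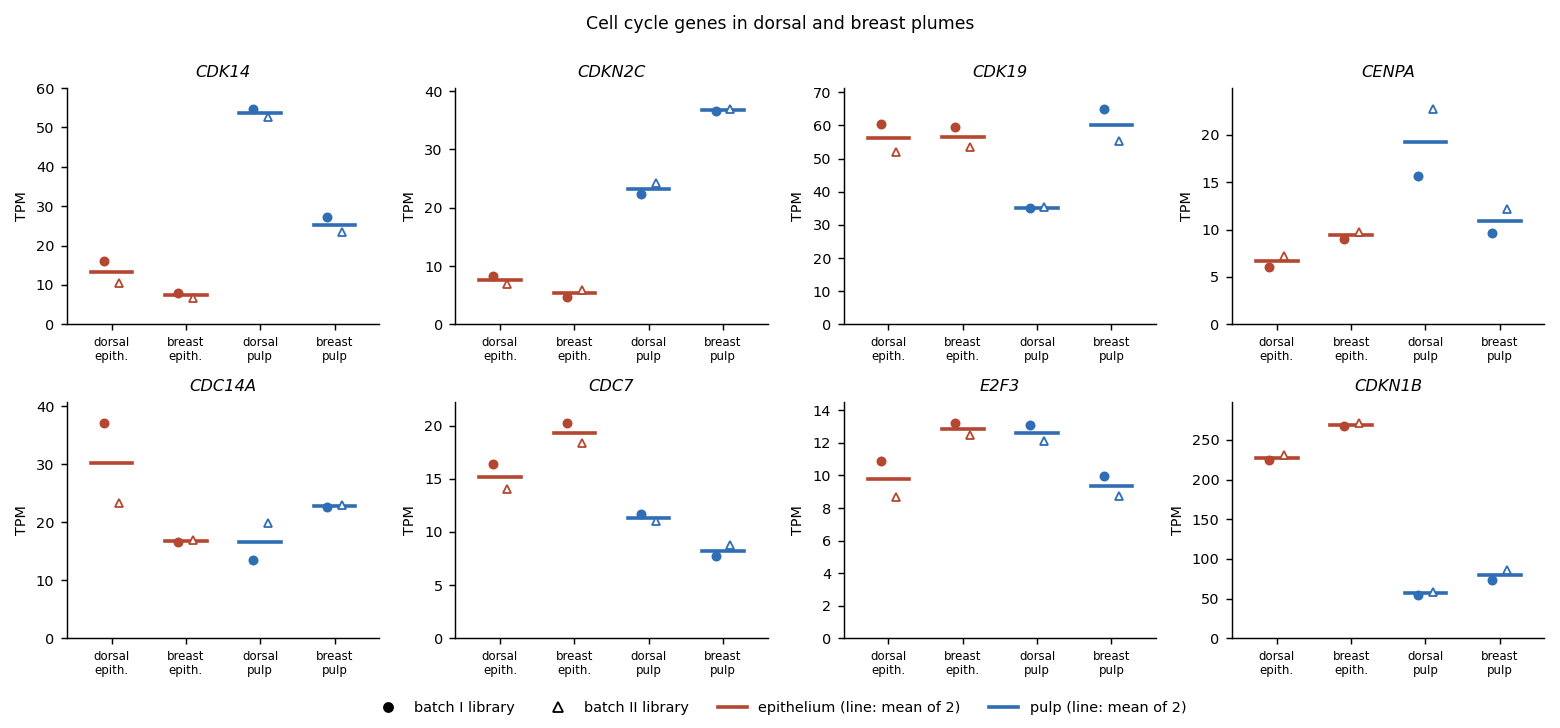
Levels of 8 cell cycle genes in TPM (linear axis from 0) in the 8 plume libraries, with circles for batch I, triangles for batch II, red for epithelium, blue for pulp and a line at the mean of the 2 libraries. CDK14 was higher in dorsal plumes in both tissues, whereas CDKN2C and CDK19 were lower in dorsal pulp but not in dorsal epithelium, and CENPA was higher in dorsal pulp but not in dorsal epithelium.

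The tract difference itself depended on the tissue for 6 members. Setting the dorsal-to-breast difference of epithelium against that of pulp, limma called 3 members with a higher value in epithelium, against 11.7% of all genes, and 3 with a lower one, against 11.0%. CDKN2C had 8.27 and 6.90 TPM in dorsal and 4.71 and 5.95 TPM in breast epithelium, next to the lower dorsal level in pulp given above, and its interaction of 1.08 ± 0.20 (adjusted p = 0.00694) was the one that held with each library left out (adjusted p at most 0.0439). CDC14A gave 1.23 ± 0.32 (adjusted p = 0.025), with 13.5 and 19.8 TPM in dorsal against 22.6 and 22.9 TPM in breast pulp, the reverse of its order in epithelium. CDK19 gave 0.74 ± 0.16 (adjusted p = 0.0132), with 60.5 and 52.0 TPM in dorsal and 59.6 and 53.6 TPM in breast epithelium, which overlapped. In the other direction was CENPA (-1.20 ± 0.28, adjusted p = 0.0155). E2F3, an activating E2F (-0.76 ± 0.21, adjusted p = 0.0316), and CDC7 (-0.75 ± 0.19, adjusted p = 0.0237) went with it. CENPA had 6.05 and 7.23 TPM in dorsal against 9.02 and 9.77 TPM in breast epithelium, so that its order there was the reverse of that in pulp.

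The 2 batches were also set against each other, with the 4 groups of a table in the model. The labels do not say what the batches differ in, the batch I pulp libraries of remiges are named unlike the rest as described above, and the genes named here were chosen after their values were seen. In remiges 11 of 100 members were higher in batch II than in batch I, against 14.5% of all genes, and 20 were lower, against 15.1%. In plumes 0 of 102 were called in either direction, against 0% and 0% of all genes, and 8 had an unadjusted p under 0.05 by limma, where 1308 of 13246 genes did. The differences of CENPK and CDK5 ran the same way in all 4 remige groups. CENPK, of the centromere network, had 22.0, 21.7, 39.4 and 42.1 TPM in the batch II libraries of lateral epithelium, medial epithelium, lateral pulp and medial pulp, against 44.8, 47.8, 78.9 and 76.5 TPM in those of batch I (-0.98 ± 0.063, adjusted p = 0.000587). PLK2, a polo-like kinase of G1 and of stress, gave -0.89 ± 0.053 (adjusted p = 0.000461) and CCNE1 gave -0.87 ± 0.079 (adjusted p = 0.00154). CDK5, known for its role in neurons, was higher in batch II, at 27.4, 27.2, 29.4 and 32.3 TPM against 16.3, 13.0, 16.04 and 18.1 TPM in batch I (0.84 ± 0.075, adjusted p = 0.0015).

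MKI67 was among the genes lower in batch II in remiges (-0.44 ± 0.093, adjusted p = 0.0176), while PLK1 was higher (0.46 ± 0.086, adjusted p = 0.0127), so the proliferation marks did not move together. Several members that missed the threshold between the remige tissues passed once the batch was a block, among them CENPK (-0.80, adjusted p = 0.115, and 4.93e-05 with the block), PLK2 (0.56, adjusted p = 0.208, and 0.000113 with the block) and CDK2 (-0.47, adjusted p = 0.111, and 0.000465 with the block).

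**Figure D5:**
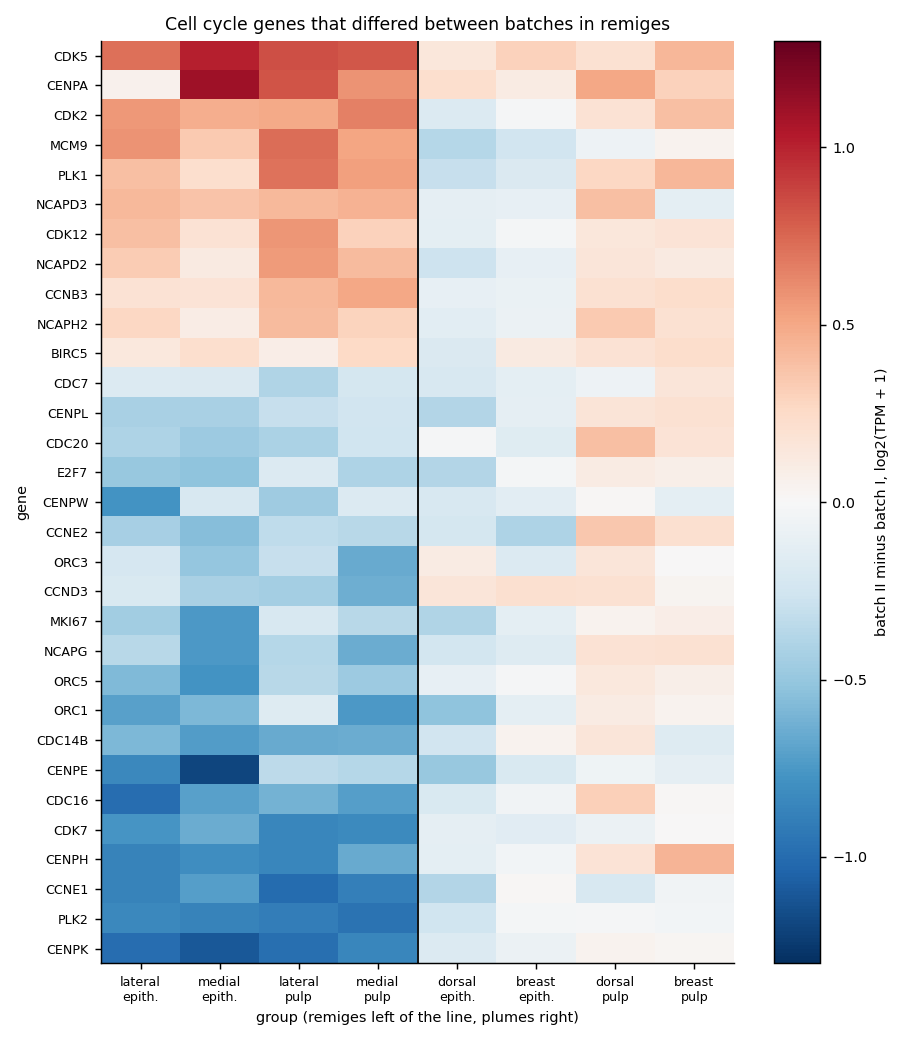
Batch II minus batch I on log2(TPM + 1) for the 31 cell cycle genes called between batches in remiges (rows, chosen by that test), in each of the 8 groups (columns, remiges left of the line, plumes right); red is higher in batch II and blue lower. The 11 genes at the top were higher and the 20 below lower in batch II of remiges, whereas in plumes limma called 0 of 102 members between the batches.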

How the data were processed

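Epithelium and pulp of growing chicken feathers were sequenced in 8 groups of 2 libraries. The authors trimmed, mapped to galGal4 and quantified the reads in Partek (TopHat2 is also named) and deposited RPKM per gene and the number of alignments per library, in 1 table for remiges and 1 for plumes. Versions, annotation, strand setting and the handling of multi-mapping reads are not given in the sources used here, so genes with close copies or antisense partners are uncertain. RPKM are not counts, so counting error cannot be computed, and precision rests on the spread between libraries. The 281 gene columns used in each table were listed by name, and the other 15514 (remiges) and 15415 (plumes) entered only the scaling and the fit over all genes.

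Each library was rescaled to sum to 1000000 (TPM). Tests were made on log2(TPM + 1) in R 4.3.3 with the lmFit and trended eBayes functions of limma 3.58.1. Each table was fitted with 4 group means, which left 4 residual degrees of freedom. This main fit took no account of follicles shared between the libraries of a batch. Genes averaging under 1 TPM in each group were left out, and 12954 remained for remiges and 13246 for plumes, with Benjamini-Hochberg adjustment over all of them and calls at 0.05. Fold changes are differences of mean log2(TPM + 1), with SE. The scripts were tested on simulated data. Tables were handled with Python 3.11.15, pandas 2.3.3 and numpy 2.4.6, and figures drawn with matplotlib 3.10.9.

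Genes named in the text were standard cycle genes, the 6 largest calls per comparison and direction with at least 5 TPM and no overlap of libraries (the 3 largest where fewer than 3 passed), the most abundant member of each role, and the 2 largest per direction of lists outside the rule; others are examples chosen after their values were seen. The members and lists were chosen with earlier results of these data known. Of the 104 symbols, 102 matched RefSeq by symbol and 1 by synonym. The labels give each library a batch. Differences between batches were correlated between groups over all genes at 0.45 to 0.81 in remiges and 0.0043 to 0.12 in plumes (6 pairs of groups each, a description), and a fit with the batch as a replicate block was run as an alternative. Others were RPKM as deposited, equal upper quartiles, quantile normalization, pseudocounts, filters, only the groups of a comparison, and leaving out each library. The comparison of batches, the fit without both batch I pulp libraries of remiges and the count without members known for other roles were added after seeing the data. Promoter motifs were not scanned and no coordinates are given, because the annotation at hand is of another build.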

Additional observations from a re-analysis of the deposited data

Results flagged for a closer look

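In plumes the dorsal-to-breast difference was not the same in epithelium and pulp for 6 cell cycle genes, by limma's test of the interaction with Benjamini-Hochberg adjustment over all genes. The dorsal-to-breast difference in epithelium less that in pulp was 1.23 for CDC14A, 1.08 for CDKN2C and 0.74 for CDK19 on the log2 scale. It was -1.20 for CENPA, -0.76 for E2F3 and -0.75 for CDC7. With 1 library left out, the largest adjusted p was 0.112 for CDC14A, 0.0439 for CDKN2C, 0.0678 for CDK19, 0.0725 for CENPA, 0.12 for E2F3 and 0.107 for CDC7.

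CDK19 was called in opposite directions in the 2 feather types, at -0.39 in remiges and 0.29 in plumes for epithelium minus pulp. The plume value is a mean over dorsal and breast plumes. In dorsal plumes every epithelium library was above every pulp library. In breast plumes the tissues overlapped and the pulp mean was the higher, so the opposite direction was seen in dorsal plumes only. Both passed their own test, and the difference between the feather types was not tested because the 2 tables are separate.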

How the results depend on the processing

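For epithelium against pulp in remiges, members called higher numbered 10, and 19 with equal upper quartiles, 28 after quantile normalization and 17 with the replicate block; members called lower numbered 38, and 20, 15 and 60, and 24 without both batch I pulp libraries. The remige median was −0.33, and −0.21 in RPKM, −0.033 with equal upper quartiles, −0.24 with a pseudocount of 5 TPM and 0.10 after quantile normalization. In plumes 23 were called higher, 43 after quantile normalization and 15 without members known for other roles, and the median was −0.24, or 0.08 after quantile normalization. The medians of all genes moved with these.

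Dorsal against breast epithelium gave 4 higher and 4 lower: 10 higher with equal upper quartiles, 2 with no filter, 2 and 1 with only those groups, 11 lower in RPKM, and 2 and 1 without members known for other roles. Dorsal against breast pulp gave 6 higher and 8 lower: 11 higher with equal upper quartiles and 11 after quantile normalization, 3 with no filter, 5 lower with only those groups, and a median of 0.032 in place of −0.015 after quantile normalization. The calls over all genes moved as well. In epithelium 1648 of 13246 genes were higher with equal upper quartiles and 1702 lower in RPKM, against 1132 and 1205 in the main fit. In pulp 1925 were higher with equal upper quartiles and 2109 after quantile normalization, against 1718 in the main fit. Calls over all genes with no filter or only those groups are not listed here.

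Leaving out each library gave, in dorsal against breast epithelium, 0 to 5 higher, 0 to 5 lower and medians of −0.14 to 0.089, and in pulp 1 to 10, 1 to 8 and −0.079 to 0.038. It gave 1 to 4 and 0 to 4 for the tract interaction, medians of −0.13 to 0.061 for lateral against medial epithelium and −0.14 to 0.062 for the side interaction. The lowest counts for dorsal against breast epithelium, 0 and 0, came without breast epithelium I and without breast epithelium II. Calls over all genes in these fits are not listed here, so these counts have no background.

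Signs turned in remiges for BUB1 after quantile normalization (0.10), CCNB2 with equal upper quartiles (0.033), and, with equal upper quartiles and after quantile normalization, CCNA2 (0.10 and 0.085), MKI67 (0.10 and 0.086) and TOP2A (0.14 and 0.099). In plumes they turned for CDKN3 after quantile normalization (0.20), TOP2A (0.055 and 0.0197) and CCNA2, whose value came to -0.0019 in RPKM and ranged over -0.069 to 0.087 with 1 library left out. The cause was not tested in any of these.

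Of 87 calls of named genes, recomputed to 1443 alternative values, 1231 stayed called in the same direction, 209 kept the direction but not the call and 3 turned. Part of these genes were named for the size of their calls, and the alternatives reuse the same libraries, so this agreement is no separate support. The calls between plume tissues of CDK15, CENPJ, NCAPG2 and ORC5, which turned after quantile normalization, are not among the 87. The replicate block left 85 of the 87 calls standing and ended those of CDC14A in dorsal against breast epithelium and E2F5 in pulp. Lateral against medial gave 0 calls under every alternative run, block included. Depth is known only as alignments, and 2 libraries a group limit which differences could be seen.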

Other observations

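Some cell cycle genes outside the naming rule were called between the plume tracts. In epithelium limma called 6 of 58 other mitosis genes and 3 of 22 other regulators higher in dorsal plumes, and 4 of 38 other replication genes and 2 regulators lower. In pulp it called 3 replication genes, 4 mitosis genes and 1 regulator higher, and 1 replication gene and 2 regulators lower. All genes were called at 8.55% higher and 9.10% lower in epithelium and at 13.0% and 15.2% in pulp. The genes below were named for the size of their difference and are no sample of the lists. DSCC1, which loads the replication clamp in cohesion, had 96.6 and 94.9 TPM in dorsal pulp against 21.1 and 25.6 TPM in breast pulp, and 22.9 and 16.3 TPM in dorsal against 21.3 and 17.3 TPM in breast epithelium. The difference in pulp was 2.00 ± 0.17 on the log2 scale (limma adjusted p = 8.19e-05), and the interaction with tissue was -1.99 ± 0.25 (adjusted p = 0.000925). HJURP, the chaperone that deposits CENPA, was also higher in dorsal pulp (0.79 ± 0.15, adjusted p = 0.00456), and CENPA was higher in the same libraries. BTG2, an antiproliferative gene, was lower in dorsal pulp, at 51.0 and 51.4 TPM against 100.4 and 99.7 TPM in breast pulp (-0.95 ± 0.072, adjusted p = 4.03e-05), and so was CCNG2, a cyclin linked to cell cycle arrest (-0.62 ± 0.094, adjusted p = 0.00163).

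In dorsal epithelium MYBL1, a MYB-family activator, was higher, at 10.6 and 9.25 TPM against 4.78 and 4.58 TPM in breast epithelium (0.94 ± 0.14, adjusted p = 0.00287), and so was MYCN (0.70 ± 0.19, adjusted p = 0.0334). RB1, the retinoblastoma pocket protein that holds E2F factors, was lower (-0.61 ± 0.12, adjusted p = 0.0087), as was MYC (-0.41 ± 0.12, adjusted p = 0.0483). With 1 library left out the calls of DSCC1 and BTG2, CCNG2 in pulp and MYBL1 stayed under 0.05, while the adjusted p of limma reached 0.0543 for HJURP, 0.0902 for RB1, 0.211 for MYCN and 0.212 for MYC.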
